A study of Mus musculus with 2 samples.

Results

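The genes described here are 10 members of the NF-kB system: the 5 transcription factor subunits Nfkb1, Nfkb2, Rel, Rela and Relb, the classical inhibitors Nfkbia and Nfkbie, the nuclear inhibitor-like proteins Nfkbid and Nfkbiz, and the feedback inhibitor Tnfaip3. They were chosen by name, as all non-control probes of the array that the scanner output or a current synonym assigns to 1 of these genes. The choice gave 14 probes, printed as 32 spots on each array, of 41174 gene probes and 43379 gene spots. All 10 genes were represented, of 27666 gene names on the array. Nfkbid was listed under an older clone name and was recognised through its RefSeq accession.

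The study compared immature B cells that bind a self antigen with cells that do not. Both groups carry 3-83Igi, a knocked-in B cell receptor gene whose product recognises certain H-2 class I molecules. The autoreactive group was of strain BALB.B with the genotype 3-83Igi, Rag1-/-, H-2b, and the non-autoreactive group was of strain BALB/c with the genotype 3-83Igi, H-2d. Cells of both groups were pooled bone marrow cells sorted as positive for B220 and negative for CD23, CD43 and IgD, taken from untreated mice whose age and sex the labels do not give. Each of the 2 arrays set autoreactive RNA in the Cy5 channel against non-autoreactive RNA in the Cy3 channel, with no dye swap. Strain, H-2 type, the Rag1 disruption and the dye therefore change together with the group, and their parts in a difference cannot be told apart.

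NF-kB proteins are held in the cytoplasm by inhibitors of the IkB family until a kinase complex marks the inhibitor for destruction. In the classical route, signals from the B cell receptor, Toll-like receptors or inflammatory cytokines release dimers of Rela or Rel with the short form of Nfkb1. In the alternative route, signals from receptors such as the BAFF receptor or CD40 lead to processing of the Nfkb2 precursor, which then acts with Relb. Several inhibitors are themselves switched on by NF-kB, which limits the response, and B cells need both routes for survival and activation.

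In each channel 54.1% to 57.4% of the gene spots exceeded background clearly by the scanner's flag, and saturation was flagged for 0 spots. The log2 ratios of the 2 arrays correlated across 22613 tested probes with a Pearson r of 0.695, which describes these arrays only, since probes are not independent replicates. H2-Ea, a class II gene that is not functional in H-2b mice, checked the labels: its normalised log2 level was 8.49 and 8.52 in the autoreactive channels against 13.71 and 13.78 in the non-autoreactive channels. Xist, the RNA of the inactive X chromosome in female cells, was at log2 levels of 12.60 and 12.64 in the autoreactive and non-autoreactive channels of array 1 and at 7.09 and 7.04 on array 2. The Y-linked gene Ddx3y ran the other way, at 7.17 and 7.16 on array 1 and at 9.21 and 9.33 on array 2. The 2 pools on an array were thus matched for Xist and Ddx3y, while the pools of different arrays were not, in either group. Differences between the arrays and this difference in X- and Y-linked RNA cannot be told apart. The labels do not say which animals entered a pool, so p-values do not measure a spread between animals. They rest on the spread between these 2 arrays and on a variance prior shared over all tested probes. The degrees of freedom were 1 residual and 5.1 prior.

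Many NF-kB members are known as targets of NF-kB, so the sequence before their transcription starts is shown for the gene with the clearest difference, for 3 genes whose ratio changed sign between the arrays, and for Rela as a contrast. The sequences are the 150 bases before a transcription start, 5′ to 3′ along the gene, from RefSeq on GRCm38.p6. Capitals mark matches to the kappa B consensus motif on either strand, overlapping matches being joined.
Nfkb2, chr19:46304587-46304736, plus strand: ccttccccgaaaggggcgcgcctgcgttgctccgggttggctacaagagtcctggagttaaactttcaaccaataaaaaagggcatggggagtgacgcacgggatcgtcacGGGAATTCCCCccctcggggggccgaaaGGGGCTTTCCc
Rel, chr11:23770970-23771119, minus strand: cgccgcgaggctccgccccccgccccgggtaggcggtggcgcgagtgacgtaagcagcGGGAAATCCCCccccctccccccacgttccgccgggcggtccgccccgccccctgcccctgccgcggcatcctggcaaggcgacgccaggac
Nfkbia, chr12:55492648-55492797, minus strand: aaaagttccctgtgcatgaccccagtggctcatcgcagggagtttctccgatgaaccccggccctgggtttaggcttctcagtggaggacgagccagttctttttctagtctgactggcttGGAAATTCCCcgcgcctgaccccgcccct
Tnfaip3, chr10:19015411-19015560, minus strand: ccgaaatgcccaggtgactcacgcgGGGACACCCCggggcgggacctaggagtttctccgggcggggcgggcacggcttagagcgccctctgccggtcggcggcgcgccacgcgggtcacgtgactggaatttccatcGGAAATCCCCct
Rela, chr19:5637391-5637540, plus strand: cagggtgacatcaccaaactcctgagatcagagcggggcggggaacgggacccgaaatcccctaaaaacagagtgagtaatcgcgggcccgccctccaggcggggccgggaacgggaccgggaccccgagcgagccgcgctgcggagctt

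The motif was searched in the 250 bases before each start. Of the 10 genes, 7 were matched in the RefSeq promoter table used here, as 12 windows for different starts, and 8 of these windows held a match, against 7.25% of all 32851 windows searched in the same way. By gene, 6 of the 7 had a match in at least 1 window, against 8.23% of 27025 genes. In Nfkb2, overlapping matches began 39 and 38 bases before the start and another began 11 bases before it. The match of Nfkbia began 29 bases before the start, those of Rel 92 and 91 bases before it, and those of Tnfaip3 125 and 12 bases before it. Nfkbie had a match beginning 106 bases before its start, and a further window of Nfkbid had matches at 226 and 181 bases. The Rela window held no match, which says only that these letters are not in it. A match is a run of letters and was not tested for binding.

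All 14 probes were well above background in both channels on both arrays, so each has a measured ratio. Values below are log2 ratios of autoreactive over non-autoreactive RNA, where 1 is a doubling, and levels are normalised log2 intensities of a channel, which may be compared between samples but not between genes. By limma, with Benjamini-Hochberg adjustment over all tested probes and a threshold of 0.05, 1 of the 14 probes was higher and 0 were lower in autoreactive cells. Across the array 5.36% of probes were called, 3.18% higher and 2.18% lower. At an unadjusted limma p under 0.05, 2 member probes were higher and 2 lower, a total of 4 of 14, against 23.1% of all probes. By the brightest probe of each gene, 1 of 10 genes was higher and 0 were lower, where 3.52% and 2.62% of 15102 genes were called and 24.3% had an unadjusted p under 0.05. The median ratio of the 10 genes was 0.16, against -0.0019 over all genes.

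**Figure D1:**
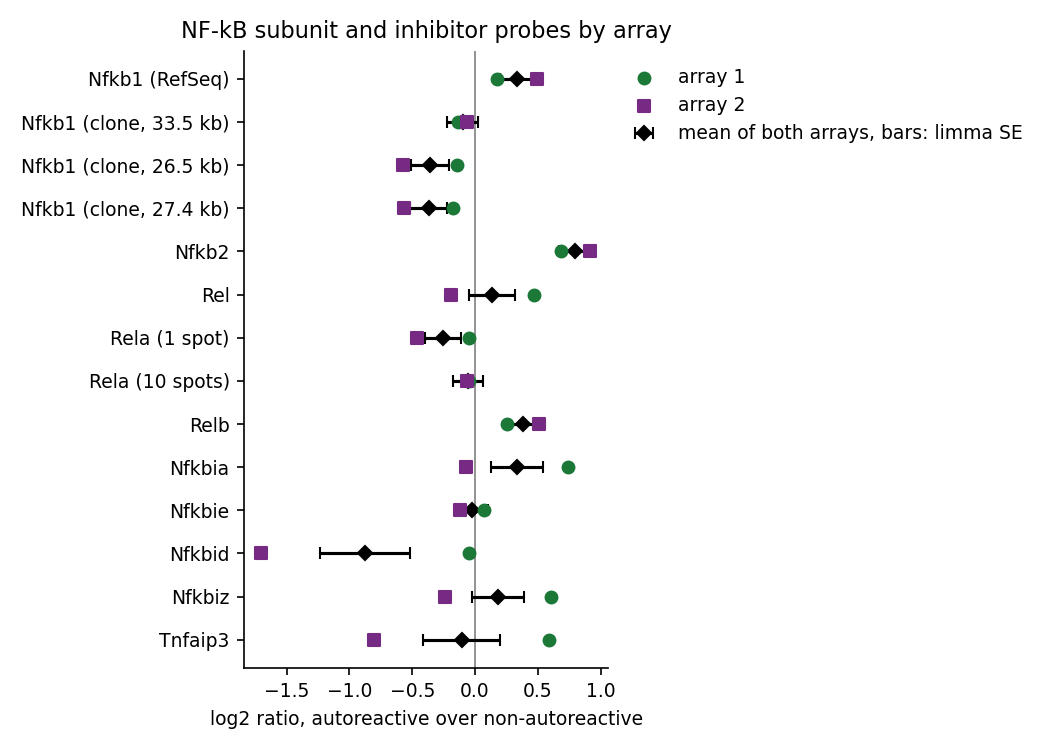
Log2 ratio of autoreactive over non-autoreactive RNA (x axis) for each of the 14 probes (y axis). Circles are array 1, squares are array 2, and diamonds with bars are the mean of both arrays with its limma SE. Nfkb2 lies at 0.68 and 0.92, while Rel, Nfkbia, Nfkbie, Nfkbiz and Tnfaip3 lie above 0 on array 1 and below 0 on array 2, a sign that median centring changes. Clone probes of Nfkb1 are labelled by their distance from the probe of the RefSeq transcript.

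Nfkb2 encodes the precursor of the alternative route's DNA-binding subunit. Its level was 11.03 in autoreactive and 10.34 in non-autoreactive cells on array 1, and 11.65 and 10.74 on array 2. The autoreactive channel was the higher of the pair on both arrays, and the lowest autoreactive level lay above the highest non-autoreactive level. The ratios of 0.68 and 0.92 gave a mean of 0.80 ± 0.13 (limma SE, n = 2 arrays), a fold of 1.74, with a limma adjusted p of 0.0263. The ratio was above 0 under all 9 alternative ways of processing, from 0.78 to 1.43, and was called under 6 of them. Alternatives that changed only the filter, the variance or the pairing leave the ratio itself unchanged, so its sign could not differ there. The value of 1.43 came from median centring over all probes, which moved the median gene to 0.58. The call was lost with the scanner's own deposited ratios, at a limma adjusted p of 0.0607, with a trended and robust variance, at 0.0570, and with the array pairing ignored, at 0.268. The probe lies on chromosome 19 at 46208290 to 46208429 in the coordinates of the scanner output, whose genome build is not given in the sources used here. That interval spans 140 bases, more than the other probes of the subunits.

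Relb, the partner of processed Nfkb2, was at 11.89 in autoreactive and 11.64 in non-autoreactive cells on array 1, and at 12.73 and 12.22 on array 2. Both ratios were above 0, at 0.26 and 0.51, and their mean of 0.38 ± 0.13 (SE, n = 2 arrays) did not pass the test, with a limma adjusted p of 0.160. The levels of the groups overlapped, because the non-autoreactive level of array 2 exceeded the autoreactive level of array 1. Both Nfkb2 and Relb were at higher levels on array 2 in both channels, by 0.63 and 0.39 for Nfkb2 and by 0.84 and 0.58 for Relb in the autoreactive and non-autoreactive channels.

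Nfkb1 encodes the precursor of the classical route's short subunit and was measured by 4 probes. The probe of the RefSeq transcript, printed 10 times, was at 13.76 in autoreactive and 13.59 in non-autoreactive cells on array 1, and at 13.98 and 13.49 on array 2. The autoreactive level was the higher on both arrays, with ratios of 0.18 and 0.49 and a mean of 0.33 ± 0.14 (SE, n = 2 arrays), which did not pass at a limma adjusted p of 0.217. Its single spots ranged from -0.031 to 0.26 on array 1 (SD 0.079, 10 spots) and from 0.46 to 0.51 on array 2 (SD 0.016, 8 spots after 2 were removed as outliers). The spots of the arrays did not overlap, so the gap between the arrays was larger than the spread of spots within an array.

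The other 3 Nfkb1 probes, which target cDNA clones on the same strand 26.5, 27.4 and 33.5 kb away, had ratios below 0 on both arrays. The probe at 26.5 kb gave -0.14 and -0.58, with a mean of -0.36 ± 0.15 (SE, n = 2 arrays). The probe at 27.4 kb gave -0.18 and -0.56, with a mean of -0.37 ± 0.14, and the probe at 33.5 kb gave -0.13 and -0.065, with a mean of -0.099 ± 0.12. The probe at 33.5 kb was dim, at 7.09 and 7.27 in autoreactive cells on arrays 1 and 2. Its mean ratio was -0.21 with the deposited values. None of the 3 clone probes passed, with limma adjusted p of 0.223, 0.201 and 0.656. The 4 probes thus did not share a sign, and the mean over all of them was -0.12 ± 0.12, with a limma adjusted p of 0.556. Whether the clone probes read the mature transcript was not tested.

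**Figure D2:**
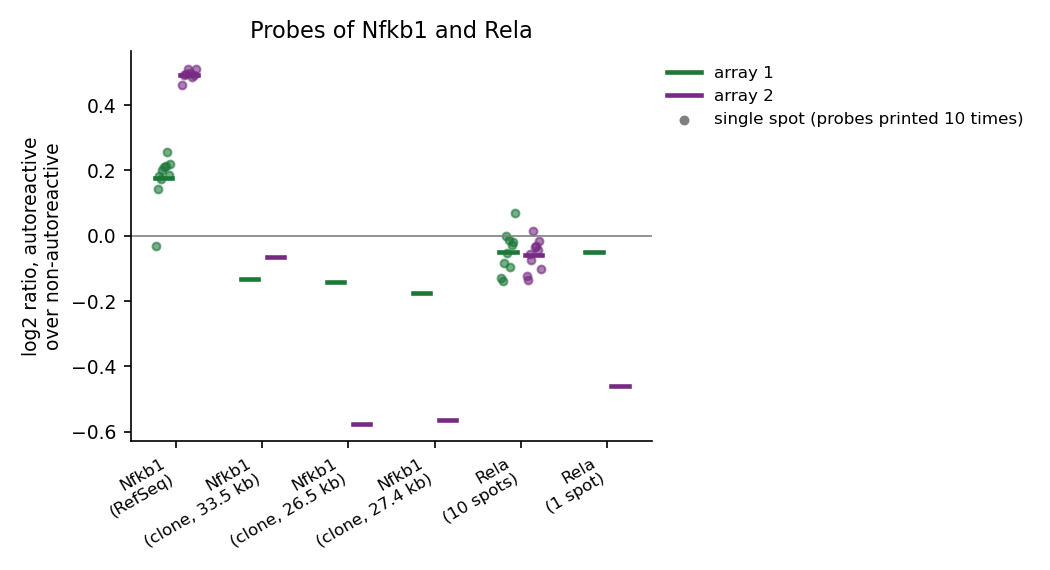
Log2 ratio of autoreactive over non-autoreactive RNA (y axis) for each probe of Nfkb1 and Rela (x axis), on array 1 and array 2. Horizontal lines are the probe's value on an array and points are single spots of the probes printed 10 times. The RefSeq probe of Nfkb1 lies at 0.18 and 0.49, and the 3 clone probes of Nfkb1 lie below 0 on both arrays.

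Rela, the main activating subunit of the classical route, was measured by 2 probes. The brighter one was at 12.72 in autoreactive and 12.77 in non-autoreactive cells on array 1, and at 12.46 and 12.92 on array 2. Its ratios were -0.051 and -0.46, with a mean of -0.25 ± 0.15 (SE, n = 2 arrays) and a limma adjusted p of 0.347. The probe printed 10 times gave -0.050 and -0.060, with SDs over its spots of 0.064 and 0.048 and a limma adjusted p of 0.818 for the mean of -0.055 ± 0.12. Its levels lay between 8.64 and 8.72 in all 4 channels, the narrowest range of the 14 probes. The probes are close to each other on the chromosome and differed on array 2, where the brighter one was read from 1 spot.

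Rel, the subunit that is restricted largely to blood cells and is induced on B cell activation, changed sign between the arrays. Its level was 8.90 in autoreactive and 8.43 in non-autoreactive cells on array 1, and 8.58 and 8.77 on array 2. The autoreactive channel was the higher on array 1 and the lower on array 2, with ratios of 0.47 and -0.19. The mean of 0.14 ± 0.18 (SE, n = 2 arrays) did not pass, with a limma adjusted p of 0.678.

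Nfkbia encodes the inhibitor that is destroyed and then resynthesised fastest after stimulation. It was at 15.62 in autoreactive and 14.89 in non-autoreactive cells on array 1, and at 15.94 and 16.01 on array 2. The autoreactive channel was the higher on array 1 alone, since the non-autoreactive level was 1.12 higher on array 2 than on array 1. The ratios were 0.74 and -0.070, with a mean of 0.33 ± 0.20 (SE, n = 2 arrays) and a limma adjusted p of 0.370. In the scanner's own deposited ratios, turned to log2, they were 0.47 and -0.44. The gap between the arrays was thus present in both processings, while the mean was 0.015 with the deposited values.

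Nfkbie, an inhibitor that acts mainly on dimers with Rel and Rela, was at 12.71 in autoreactive and 12.65 in non-autoreactive cells on array 1, and at 13.29 and 13.41 on array 2. The channels of an array differed little, with ratios of 0.069 and -0.12, a mean of -0.023 ± 0.13 (SE, n = 2 arrays) and a limma adjusted p of 0.932. Both channels were higher on array 2, by 0.58 and 0.76. The gene lies on chromosome 17, 11.3 Mb from H2-Ea in the coordinates of the scanner output.

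Nfkbid encodes a nuclear protein of the IkB family that B cells need for full responses to antigen. It was at 9.41 in autoreactive and 9.46 in non-autoreactive cells on array 1, and at 8.88 and 10.58 on array 2. The channels lay close together on array 1 and far apart on array 2, where the autoreactive level was lower and the non-autoreactive level 1.13 higher than on array 1. The ratios were -0.045 and -1.70, with a mean of -0.87 ± 0.36 (SE, n = 2 arrays) and a limma adjusted p of 0.215. This SE was the largest of the 14 probes.

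Nfkbiz, another nuclear IkB protein, which is induced by Toll-like receptor signals and works as a cofactor at some promoters, was at 12.49 in autoreactive and 11.89 in non-autoreactive cells on array 1, and at 12.24 and 12.48 on array 2. The order of the channels turned between the arrays, with ratios of 0.61 and -0.24. The mean was 0.18 ± 0.21 (SE, n = 2 arrays), with a limma adjusted p of 0.634.

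Tnfaip3, known as A20, is a ubiquitin-editing enzyme that shuts off signalling upstream of the IkB kinases. It was at 13.94 in autoreactive and 13.35 in non-autoreactive cells on array 1, and at 13.61 and 14.41 on array 2. The autoreactive channel was the higher on array 1 and the lower on array 2, and the non-autoreactive level was 1.06 higher on array 2. The ratios were 0.59 and -0.80, with a mean of -0.11 ± 0.31 (SE, n = 2 arrays) and a limma adjusted p of 0.860. The deposited ratios, on the log2 scale, were 0.64 and -0.80.

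**Figure D3:**
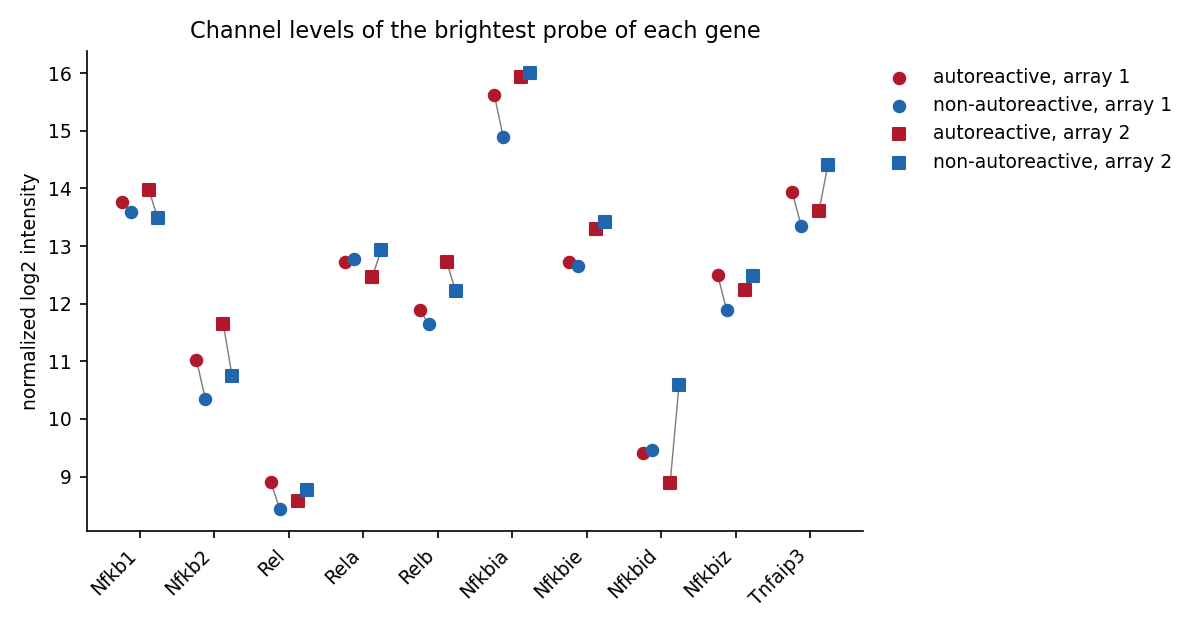
Normalised log2 intensity (y axis) of the brightest probe of each of the 10 genes (x axis), in autoreactive (red) and non-autoreactive (blue) cells on array 1 (circles) and array 2 (squares), with lines joining the channels of an array. Levels are not comparable between genes. The non-autoreactive levels of Nfkbia, Nfkbid and Tnfaip3 were 1.12, 1.13 and 1.06 higher on array 2, and the Nfkb2 pairs show the autoreactive channel on top on both arrays.

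For 5 of the 10 genes the arrays gave ratios of opposite sign. Of the 10 genes, 3 had ratios above 0 on both arrays (Nfkb1, Nfkb2 and Relb), as did 36.1% of all genes, and 2 had ratios below 0 on both (Rela and Nfkbid), as did 35.4%. The remaining 5 (Rel, Nfkbia, Nfkbie, Nfkbiz and Tnfaip3) were above 0 on array 1 and below 0 on array 2, against 15.7% of all genes. Nfkb1 was placed by its RefSeq probe, the brightest, while the mean over all its probes was -0.069 on array 1 and -0.18 on array 2. The median ratio of the 10 genes was 0.36 on array 1 and -0.16 on array 2, where the medians over all genes were 0.0087 and -0.010. The ratio was at least 0.5 higher on array 1 than on array 2 for 5 of the 14 probes (Rel, Nfkbia, Nfkbid, Nfkbiz and Tnfaip3), against 7.74% of all probes, and for 0 probes the other way. This limit of 0.5, and the limit of 1 for levels used next, were set after the values were seen. With 1 array on each side, the difference between the arrays has no test. The sign of a ratio depended on the centring: the count of genes above 0 on array 1 and below 0 on array 2 was 4 with the deposited ratios, 3 with median centring over tested probes and 1 with median centring over all probes, against 13.3%, 9.16% and 8.07% of all genes. The count of genes with a gap of at least 0.5 between the arrays did not, as 5 of the 10 genes showed it, all higher on array 1, in the reported fit and in each of these 3 processings. The share of all genes with that gap was not counted in these processings.

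The levels of a channel differed between the arrays most often in the non-autoreactive cells. The non-autoreactive level was at least 1 higher on array 2 for 3 of the 14 probes, against 1.11% of all probes, and the autoreactive level for 0 of them, against 0.513%. The non-autoreactive level was higher on array 2 for 13 of the 14 probes, against 49% of all probes, and the autoreactive level for 9 of the 14, against 48.9%. The RefSeq probe of Nfkb1 was the exception in the non-autoreactive channel, where the level on array 2 minus that on array 1 was -0.099.

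The marker lists of several other cell types also had different ratios on the 2 arrays. The sorted gate of B220 with 3 negative markers can hold plasmacytoid dendritic cells, and all 8 of their markers had ratios below 0 on both arrays, with medians of -0.80 and -1.88 for arrays 1 and 2. Of these 8, 2 passed the limma test as lower, Ly6d (ratios of -1.48 and -1.16) and Ptprs (-0.77 and -1.42). An unadjusted limma p under 0.05 was found for 6 of them. For this and the lists below, 6.14% of all genes were called and 24.3% had an unadjusted p under 0.05. The summed log2 level of the plasmacytoid markers was 16.56 and 17.21 in the autoreactive and non-autoreactive channels of array 1 and 16.49 and 17.46 on array 2. A summed level adds the intensities of a list, so its brightest members weigh most, here Irf8 and Ly6d. Siglech, which defines the type, had ratios of -0.87 and -2.77 and did not pass (limma adjusted p = 0.0610). It was dim in the autoreactive channel of array 2, at 6.91, where the lowest level well above background was 6.79. Natural killer cell markers had medians of -0.026 and -1.21 (6 tested, 0 called by limma, 2 at an unadjusted p under 0.05), with summed levels of 13.32 and 13.39, then 12.35 and 13.70. Myeloid markers had medians of 0.077 and -0.54 (10 tested, 0 called, 1 at an unadjusted p under 0.05), with summed levels of 18.77 and 18.33, then 18.55 and 18.73, and 7 of the 10 were above 0 on array 1 and below 0 on array 2. T cell markers had medians of -0.068 and -0.41 (6 of 8 tested, 0 called, 3 at an unadjusted p under 0.05, 1 higher and 2 lower). Their summed levels were 14.29 and 14.17, then 14.51 and 14.28, so the autoreactive sum was the higher on both arrays. The brightest members, Cd2 and Lck, weigh most in these sums, with ratios of 0.34 and 0.67 for Cd2 and of -0.046 and -0.16 for Lck. Of the 6 T cell markers, 4 (Lck, Cd3d, Cd3g and Cd8a) were below 0 on both arrays and 2 (Cd2 and Cd3e) above 0. Erythroid markers did not differ in this way, with medians of -0.52 and -0.49 (5 tested, 1 called lower, 4 at an unadjusted p under 0.05), and all 5 were below 0 on both arrays. Their summed levels were 14.54 and 15.10 on array 1 and 14.24 and 14.83 on array 2. Plasma cell markers had medians of 0.50 and -0.12 (5 tested, 2 called higher and 2 lower, 4 at an unadjusted p under 0.05), with summed levels of 14.67 and 13.86, then 14.44 and 13.91. The B lineage markers summed to between 19.27 and 19.43 in the 4 channels, with medians of 0.10 and 0.28, while single members moved in opposite directions (12 tested, 3 called higher and 3 lower, 10 at an unadjusted p under 0.05). Of these, Ms4a1, Pax5 and Ptprc were lower, at -3.61, -1.05 and -0.85, and Blnk, Vpreb3 and Cd93 were higher, at 1.08, 0.85 and 0.65. The markers Cd4 and Trat1 were on the array but did not pass the filter for testing. Ly6g and Hbb-b1 found no probe by name, so they were not measured. The part of these cells in the ratios of the NF-kB genes was not tested, and fewer cells of a type cannot be told apart from less RNA per cell.

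The other genes of the pathway were taken from 5 lists of receptors, kinases, adaptors, further inhibitors and target genes. Of their 141 genes, 125 were tested, 6 were higher and 14 lower by limma, where 6.14% of all genes were called in either direction. Their median ratio was -0.13, against 0.16 for the subunits and inhibitors.

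Among receptors and their ligands, 0 of 20 tested genes were higher and 4 were lower, with a median ratio of -0.45. At an unadjusted limma p under 0.05 the counts were 0 and 10, where 24.3% of all genes passed in either direction. Tnfrsf13c, the BAFF receptor at the head of the alternative route, was at 15.83 in the non-autoreactive cells of both arrays, with ratios of -2.06 and -1.83. It fell by 1.94 on the log2 scale ± 0.13 (SE, n = 2 arrays), with a limma adjusted p of 0.00259, and the groups did not overlap. Tlr1 fell by 1.79, and Tlr4, the endotoxin receptor, fell by 0.68, both on the log2 scale and with limma adjusted p of 0.00284 and 0.0387. Tnf, the cytokine that signals to the classical route, was lower with ratios of -0.80 and -1.40 (limma adjusted p = 0.0233). Tlr4 and Tnf were dim in autoreactive cells, at 7.97 and 7.84 for Tlr4 and at 7.63 and 7.33 for Tnf. Both lost their calls with no filter on dim probes, at limma adjusted p of 0.0569 and 0.0608. That setting leaves the ratios unchanged, and the brighter gene Irf4 also lost its call there (limma adjusted p = 0.107). Cd40 had a mean ratio of 0.061 with values of -0.17 and 0.30, and did not pass (limma adjusted p = 0.843).

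Of 22 kinases and signalosome genes, 0 were higher and 3 lower, with a median ratio of -0.19, and 1 and 7 passed at an unadjusted limma p under 0.05. Map3k8, a kinase bound to the Nfkb1 precursor, fell by 0.95 and Ikbke, an IkB kinase relative, fell by 0.70 on the log2 scale (limma adjusted p of 0.0478 and 0.0354). Both were dim in autoreactive cells, at 7.28 and 7.14 for Map3k8 and at 7.83 and 7.01 for Ikbke on arrays 1 and 2. The lowest level well above background in that channel was 6.32 and 6.79. For Ikbke the groups overlapped, with a non-autoreactive level of 7.61 on array 2. Both lost their calls with no filter on dim probes, as some brighter genes did, at limma adjusted p of 0.109 and 0.0522. The IkB kinases Chuk and Ikbkb had ratios of -0.25 and -0.30 and did not pass, and neither did Map3k14, the kinase of the alternative route, at 0.34 (limma adjusted p of 0.306, 0.249 and 0.172).

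Of 22 adaptors and ubiquitin ligases, 1 was higher and 1 lower, and their median ratio was -0.089. At an unadjusted limma p under 0.05, 1 was higher and 2 lower. Traf6, a ubiquitin ligase downstream of Toll-like receptors and CD40, rose by 0.79 ± 0.13 (SE, n = 2 arrays; limma adjusted p = 0.0258), and its other probe was also called, at 0.69. Traf1 fell by 0.89 on the log2 scale (limma adjusted p = 0.0362). Traf3, which holds the alternative route in check by promoting loss of Map3k14, had a ratio of -0.53 on both arrays and did not pass, with a limma adjusted p of 0.0675.

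Of 20 further inhibitors tested, 1 was higher and 1 lower, with a median ratio of 0.064. At an unadjusted limma p under 0.05, 2 were higher and 1 lower. Pdlim2, a nuclear ubiquitin ligase that acts on Rela, fell by 0.93 on the log2 scale (limma adjusted p = 0.0236), while a dimmer probe at -0.43 did not pass. Rnf11, a partner of Tnfaip3, rose by 0.65 (limma adjusted p = 0.0457). The IkB proteins outside the 10 genes, Nfkbib and Bcl3, had ratios of 0.25 and -0.087 and did not pass, with limma adjusted p of 0.280 and 0.696.

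Of 50 tested target genes, 4 were higher and 7 lower, with a median ratio of -0.25 that was -0.040 on array 1 and -0.43 on array 2. At an unadjusted limma p under 0.05, 9 were higher and 18 lower. The 4 targets with the largest called differences were all lower: the chemokine gene Ccl5 fell by 1.81, the follicle-homing receptor Cxcr5 fell by 1.72, the costimulatory ligand Cd86 fell by 1.48 and the adhesion receptor Slamf1 fell by 1.19, on the log2 scale. Their limma adjusted p were 0.0431, 0.00284, 0.00391 and 0.0180. Cd86 was dim in autoreactive cells, at 7.45 and 7.65 on arrays 1 and 2. Its ratio was -1.89 with the deposited values, and a dimmer probe was also called, at -0.93. Ccl5 differed between the arrays, with ratios of -0.99 and -2.63, and lost its call under 4 of the 9 alternatives. The other targets called lower were Cr2, Tnf and Traf1, of which Tnf and Traf1 are also counted among the ligands and the adaptors.

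The 4 targets called higher, which are named because there were only 4, were Il2ra, Junb, Irf4 and Bcl2l1. Il2ra, a chain of the interleukin-2 receptor, was at 10.16 in autoreactive and 9.14 in non-autoreactive cells on array 1, and at 10.66 and 9.39 on array 2, and rose by 1.14 ± 0.13 (SE, n = 2 arrays; limma adjusted p = 0.00950). Junb, an AP-1 factor, rose by 1.11 (limma adjusted p = 0.00971), and the transcription factor Irf4 rose by 0.89 with ratios of 1.23 and 0.56 (limma adjusted p = 0.0488). The survival gene Bcl2l1 rose by 0.63 with ratios of 0.61 and 0.64 (limma adjusted p = 0.0421), while 2 dimmer probes at 0.27 and 0.39 did not pass. Irf4 and Bcl2l1 were each called under 4 of the 9 alternatives. Among the other pathway genes named as called, Rnf11 kept its call under 3 of the 9, Pdlim2 and Traf1 under 5, Map3k8, Ikbke, Tlr4, Tnf, Traf6 and Slamf1 under 6, Junb under 7, and Tnfrsf13c, Tlr1, Cxcr5, Cd86, Cr2 and Il2ra under 8.

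**Figure D4:**
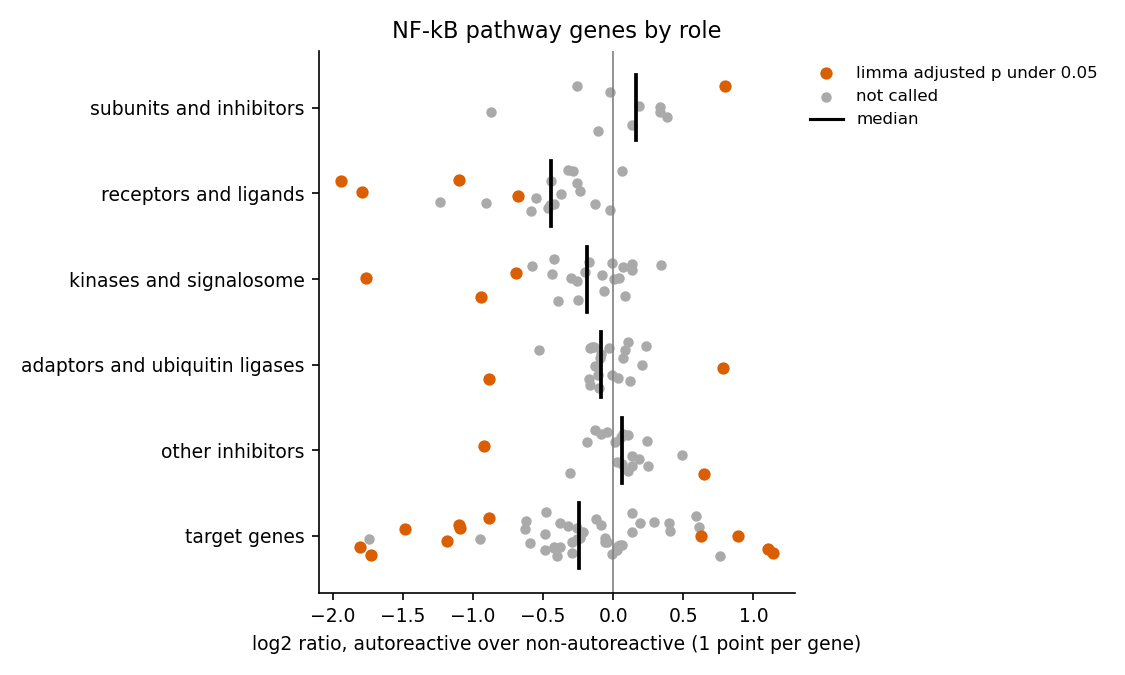
Log2 ratio of autoreactive over non-autoreactive RNA (x axis), 1 point for each tested gene by its brightest probe, in rows for the 10 subunits and inhibitors and the 5 lists of pathway genes. Orange points passed the limma test, grey points did not, and black lines are medians. The median was 0.16 for the subunits and inhibitors and -0.45 for receptors and ligands.

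Most targets that changed sign under loess did so in the same direction as the 5 genes named above. Of the 50 targets, 11 were above 0 on array 1 and below 0 on array 2 and 2 the other way, so 13 changed sign, against 28.5% of all genes. Among the 11, the activation marker Cd69 had ratios of 0.89 and -0.82 and Myc, a growth factor response gene, had 0.61 and -0.73. Irf1 gave 0.51 and -0.41, Ccnd2 gave 0.90 and -0.32 and Zc3h12a, an RNA-degrading inhibitor of inflammation, gave 0.43 and -0.16. These 5 genes were chosen after their values were seen, and none passed the limma test. The share of 11 in 50 stands beside 15.7% of all genes and is not a test.

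**Figure D5:**
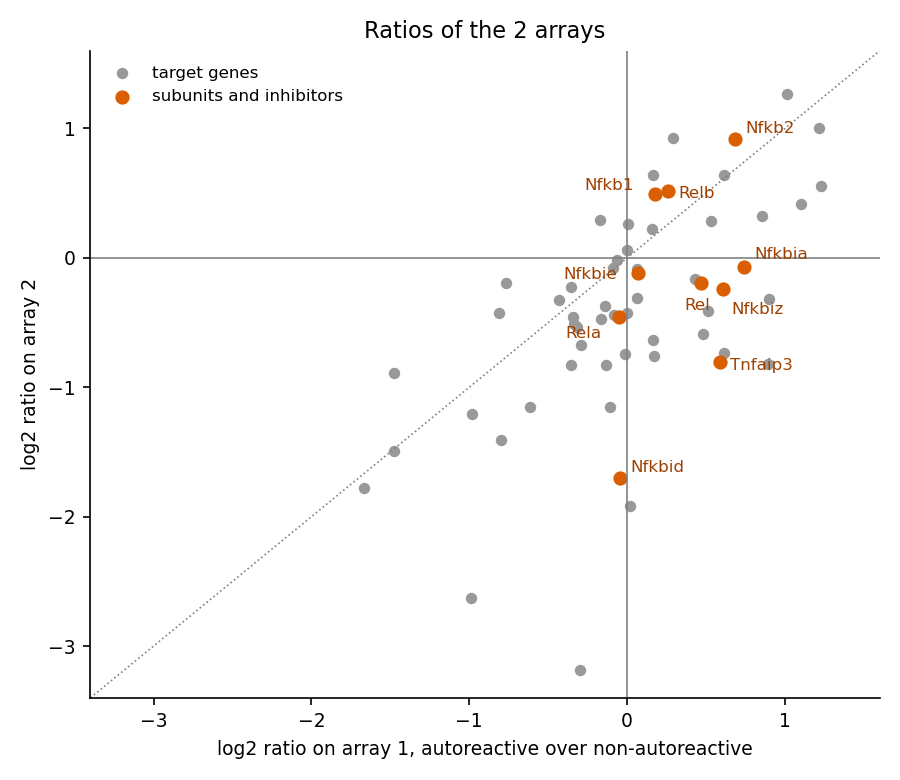
Log2 ratio of autoreactive over non-autoreactive RNA on array 1 (x axis) and array 2 (y axis) for the 10 subunits and inhibitors (orange) and the 50 tested target genes (grey), with a dotted line of equal ratios. Rel, Nfkbia, Nfkbie, Nfkbiz and Tnfaip3 lie to the right of 0 and below 0 with loess, though not all of them with median centring. Nfkb1 (by its RefSeq probe), Nfkb2 and Relb lie above 0 on both axes.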

How the data were processed

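The spots of these 2-colour arrays were quantified by Agilent Feature Extraction (version 9.5.1.1, per the file headers). From the deposited output, the values used were mean and background intensity per spot and channel, flags, and the scanner's log10 ratio, which per the file headers is Cy5 over Cy3. The authors' series value table differed from that log10 ratio by at most 5e-10. Probes were named through RefSeq accessions for 22944 probes, otherwise by symbol, synonym or the file's name. Intensities were corrected with normexp (offset 50) and loess within each array, controls and outlier spots having weight 0, and log2 ratios of spots were averaged per probe. These log2 values were computed here from the deposited intensities. Levels of a channel were additionally Aquantile-normalised. A probe was kept if the scanner's flag put 1 of its channels or both well above background on both arrays, and was tested against 0 with limma 3.58.1 (R 4.3.3; 1 residual and 5.1 prior degrees of freedom), and p-values were adjusted by Benjamini-Hochberg over 22613 probes. A gene is represented by its brightest tested probe. The script was tested on simulated data.

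The 10 genes and all lists were chosen with earlier results of these data known. Named are all 10 genes with every probe, up to 4 called genes with the largest difference of each list, and H2-Ea as the check of the labels; other names were added after their values were seen, and pathway genes not called are given for their place in the pathway. The values of 1 gene that the rule names are not reported here. The genes N4bp1, Bcl2a1a and Bcl2a1d of the lists found no probe by name. Alternatives covered background correction, the deposited ratios, centring, the filter, the variance, the pairing of channels, the probe of a gene and leaving out an array. The number of arrays, 2, limits the precision.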

Additional observations from a re-analysis of the deposited data

How the results depend on the processing

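Nfkb2 kept a ratio above 0 under all 9 alternatives, of which those that changed only the filter, the variance or the pairing could not alter it. The counts of the 10 genes and 14 probes higher, 1 and 1 in the reported fit, became 0 and 0 with the deposited log ratios, with a trended and robust variance and with the array pairing ignored. They became 9 and 9 with median centring over all probes and 4 and 4 with median centring over tested probes, where 1 probe was also lower. Centring over all probes moved the median gene to 0.58. It gave 14276 of the 22613 tested probes higher and 518 lower (96.5% of the calls higher). The reported fit gave 718 and 494 of 22613 (59.2% of the calls higher). Ratios under that centring are read against this shift, and Rel and Rela, called higher there at 0.50 and 0.56, lay below it. Centring over tested probes gave 3488 and 3935 of 22613 (47.0% of the calls higher), and a trended and robust variance gave 458 and 16 (96.6% of the calls higher). The cause was not tested. Ratios changed sign under centring over all probes for Nfkb1 at 26.5 and 27.4 kb (0.22 and 0.22), both Rela probes (0.56 and 0.31), Nfkbie (0.84) and Tnfaip3 (0.87). They changed sign under centring over tested probes for Rel (-0.033), Rela (0.023), Nfkbie (0.30) and Tnfaip3 (0.33), and with the deposited ratios for Nfkbie (0.073).

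For the pathway lists, no background correction gave 0 further inhibitors higher, and an offset of 16 gave 0 further inhibitors and 2 targets higher. The deposited ratios gave 0 adaptors higher and 0 lower, 0 further inhibitors higher and 1 target higher. Centring over all probes gave 6 receptors, 18 kinases, 18 adaptors, 17 further inhibitors and 26 targets higher, with 0 further inhibitors lower. Centring over tested probes gave 9 receptors lower, 3 kinases, 4 adaptors and 6 further inhibitors higher, and 10 targets higher with 13 lower. With no filter on dim probes, 2 receptors, 1 kinase, 0 adaptors and 0 further inhibitors were lower, 0 further inhibitors were higher, and 2 targets were higher with 3 lower. With a trended and robust variance, 0 receptors, 0 kinases and 0 targets were lower, and 0 adaptors and 0 further inhibitors were called either way. With the array pairing ignored, 2 receptors, 1 kinase and 3 targets were lower, 0 targets were higher, and 0 adaptors and 0 further inhibitors were called either way.

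With 1 array left out there is no test, so leaving out each array gave ratios only. The reported fit compares the channels within each array, and ignoring that pairing moved the limma adjusted p of Nfkb2 from 0.0263 to 0.268. All 14 probes passed the scanner's flag for signal over background, though the Nfkb1 probe at 33.5 kb was dim.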

Other observations

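Probes of a pathway gene did not always give the same call. Ikbkg, the regulatory subunit of the IkB kinase complex, had a ratio of 0.041 by its brightest probe and 0.71 by another, with limma adjusted p of 0.864 and 0.0674. Malt1, a protease that acts in antigen receptor signalling, had -0.17 by its brightest probe and -0.66 by another, with limma adjusted p of 0.549 and 0.0446, so that only the dimmer probe passed. The 2 probes of Ccl5 were alike, with ratios of -0.99 and -2.63 for one and -0.97 and -2.69 for the other on arrays 1 and 2. Il2ra had 4 probes with mean ratios between 0.75 and 1.29, of which 3 passed. The chemokine genes Ccl3 and Ccl4, which the target list holds beside Ccl5, had ratios of 0.021 and -0.30 on array 1 and of -1.92 and -3.19 on array 2, and neither passed (limma adjusted p of 0.235 and 0.159). They are named for their gap between the arrays, after their values were seen.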
